A study of Mus musculus with 12 samples.

Results

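The genes described here are 36 genes listed for astrocytes, of 24421 genes in the count table. They comprise 16 identity genes that resting astrocytes express, from Aqp4 to Agt, and 20 reactive genes, from Gfap to Serping1. The reactive genes are known to be induced in injured or inflamed tissue. Some of them, such as Vim and Cp, are also made by other cells. The genes were chosen by name and function, with earlier results of these data known, and were compared between 4 genotypes and in each library. All 36 were in the table, and 33 of them (all 16 identity genes and 17 of 20 reactive genes) had enough counts to be tested among 13065 genes. None of the 33 passed an adjusted p of 0.05 in any of the 6 comparisons. The mean log2 level of the identity genes lay between 7.56 and 7.77 in the 12 libraries, and the mean level of the reactive genes differed more between the 3 WT libraries than between the genotype means.

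Hippocampal tissue of 2-month-old mice that had received injections of BrdU, a thymidine analogue taken up by dividing cells, was profiled by 3′ mRNA sequencing (QuantSeq). The 12 libraries fell into 4 genotypes of 3: WT, 5xFAD, p75NTRko and the cross, 5xFAD/p75NTRko. The 5xFAD line expresses mutant human genes of familial Alzheimer's disease from a neuronal Thy1 promoter, and the label p75NTRko stands for loss of the p75 neurotrophin receptor, which Ngfr encodes. The series title asks how this receptor shapes adult hippocampal neurogenesis in Alzheimer's disease. The labels call the 3 libraries of a genotype biological replicates and do not say whether each came from 1 mouse, so p-values measure the spread between these libraries.

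Astrocytes take up glutamate and potassium from around synapses, turn glutamate into glutamine, and control water at the vessel wall with aquaporin-rich endfeet. In disease they become reactive: they thicken their filament network of GFAP and vimentin and switch on acute-phase, complement, interferon-responsive and antigen-presentation genes, in mixtures that depend on the injury. In 5xFAD tissue astrocytes are known to react around amyloid plaques. In the hippocampus the radial glia-like stem cells of the dentate gyrus share part of this programme, Gfap and Vim included. A count from bulk tissue cannot tell fewer astrocytes apart from less RNA per astrocyte.

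Gene-assigned reads numbered 4316739 to 6683613 per library, so that 3 counts were worth 0.446 to 0.690 CPM (counts scaled to the total of the library). Ngfr went against the labels: it had 1 to 12 counts in the 6 libraries labelled WT or 5xFAD and 32 to 64 counts in the 6 labelled as receptor knockouts, which are therefore called p75NTRko-labelled and 5xFAD/p75NTRko-labelled throughout. Which exons the deletion removes is not stated in the sources used here, so a 3′ count may lie outside it. Neither that position nor an exchange of labels was tested. Every direction given between receptor genotypes rests on these labels. Thy1 reads, which can include transgene sequence, stood at 688 to 939.8 CPM in the 6 libraries without the 5xFAD label and at 1596 to 4019 CPM in the 6 with it. The X-inactivation transcript Xist was at 359.7 to 439 CPM in 7 libraries (all WT, all 5xFAD/p75NTRko-labelled and p75NTRko-labelled replicate 1) and at 1.53 to 3.58 CPM in the other 5, so that for 5xFAD against WT, and for 5xFAD/p75NTRko-labelled against 5xFAD, genotype and Xist class cannot be told apart. Choroid plexus and thalamic RNA differed between libraries, and the thalamic score, a mean of log2 levels over the markers, was highest in 5xFAD/p75NTRko-labelled replicate 1 and next in WT replicate 3. By summed CPM, WT replicate 2 was second.

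In bulk tissue the astrocyte label of the identity set was not tested against other cell types. Of 30 further astrocyte genes, such as the potassium channel Kcnj10, 30 passed the filter, and their mean log2 CPM lay between 5.85 and 6.01 in all 12 libraries. The mean log2 CPM of the 16 identity genes, called the identity score, lay between 7.56 and 7.77. Their summed level was 8492 to 9776 CPM. All 20 listed reactive genes, tested or not, summed to 196 to 306 CPM, which was 2.06% to 3.30% of the identity sum. Gfap alone made up 37.3% to 52.5% of the reactive sum, and Gfap with the class I antigen-presenting gene H2-D1 made up 53.6% to 66.6%. A 3′ count carries no gene-length term, but reads that fit several genes were not counted, and the reactive sum may be too low where members have close copies (C4b, H2-D1, Gbp2 and Serpina3n).

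**Figure D1:**
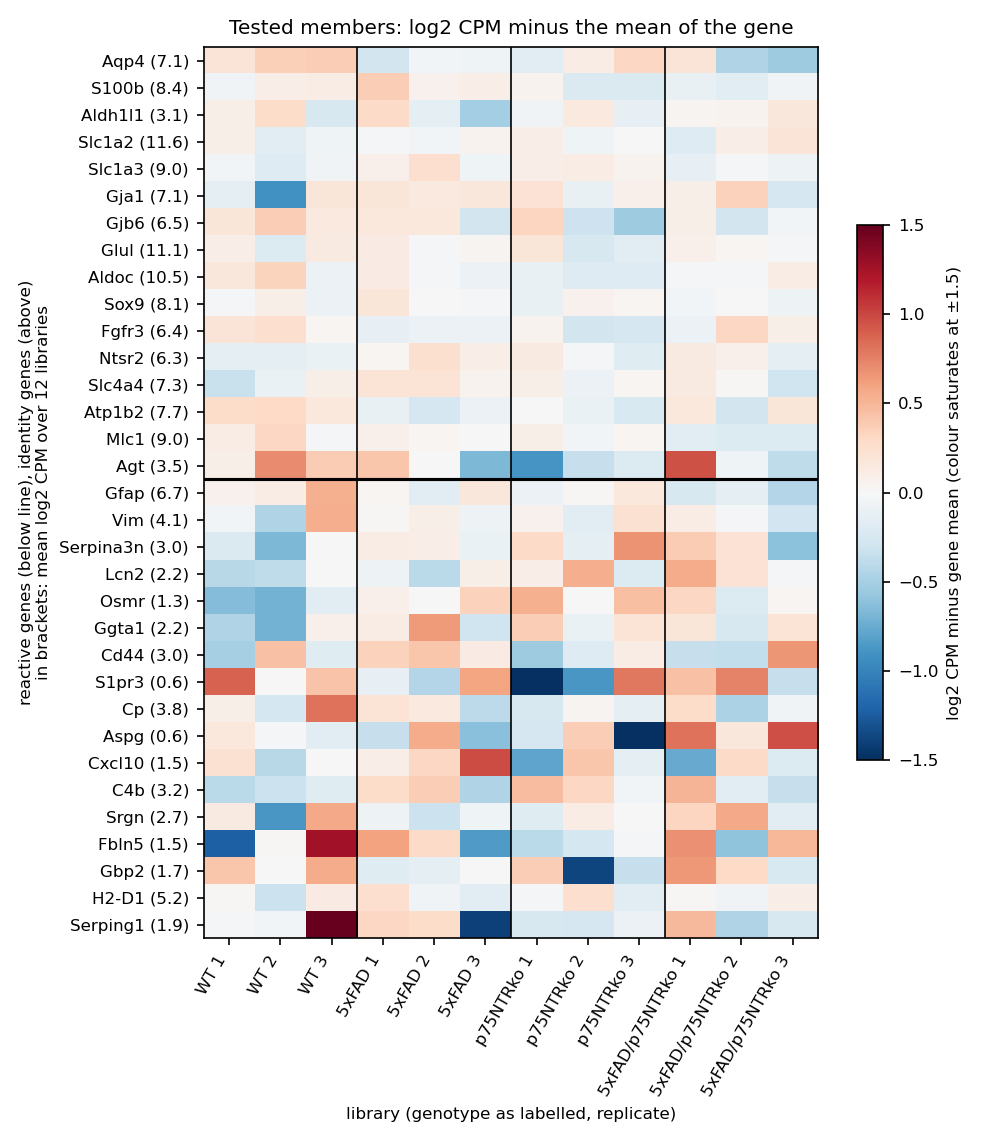
Heat map of the 33 tested genes (rows, with the mean log2 CPM of each in brackets) in the 12 libraries (columns, by genotype as labelled and replicate); colour gives log2 CPM minus the mean of the gene, and saturates at 1.5 in either direction. The identity rows are mostly pale, with Agt the most variable of them. Most reactive rows hold stronger single-library colours, and Gfap, Vim, Cp, Fbln5 and Serping1 are highest in WT replicate 3.

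Among the identity genes, glutamate handling had the most abundant transcripts. Slc1a2, the main glutamate transporter of forebrain astrocytes (GLT-1), stood at 3209.8, 2695 and 2875 CPM for WT (replicates 1, 2 and 3, an order kept below), 2972, 2932 and 3119 for 5xFAD, 3235, 2887 and 2984 for p75NTRko-labelled and 2638, 3220.0 and 3427 for 5xFAD/p75NTRko-labelled libraries. The 4 genotypes overlapped, and the 5xFAD/p75NTRko-labelled libraries held both the lowest and the highest value. Its log2 fold change for 5xFAD against WT was 0.04, with a 95% interval of -0.19 to 0.26. Glul, which makes glutamine from glutamate, ranged from 1869 to 2502 CPM, and the second transporter Slc1a3 (GLAST), which radial glia-like stem cells also express, from 448 to 612 CPM.

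The water and ion transport genes gave several of the smallest p-values. Aqp4, the water channel of the endfeet, stood at 157, 177 and 178 CPM for WT, 114, 134 and 132 for 5xFAD, 124, 149 and 172 for p75NTRko-labelled and 158, 101 and 94.9 for 5xFAD/p75NTRko-labelled libraries. All 3 5xFAD libraries lay below all 3 WT libraries, while 5xFAD/p75NTRko-labelled replicate 1 lay within the WT range. The log2 fold change was -0.43 for 5xFAD against WT (SE 0.168, adjusted p = 0.307 by edgeR's quasi-likelihood test, Benjamini-Hochberg adjusted over all tested genes) and -0.53 for 5xFAD/p75NTRko-labelled against WT (SE 0.168, adjusted p = 0.432). These 2 comparisons share the WT libraries, as do all comparisons against WT below.

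Atp1b2 encodes the glial β2 subunit of the sodium-potassium pump. It stood at 249.8, 253 and 229.6 CPM for WT, 191, 173 and 193 for 5xFAD, 205, 193 and 175 for p75NTRko-labelled and 229, 170.0 and 234 for 5xFAD/p75NTRko-labelled libraries. Every WT library was above every 5xFAD and every p75NTRko-labelled library, and the 5xFAD/p75NTRko-labelled libraries spread over both ranges. Its log2 fold change was -0.40 for 5xFAD against WT (SE 0.115, adjusted p = 0.23) and -0.36 for p75NTRko-labelled against WT (SE 0.115, adjusted p = 0.331), by edgeR. The interaction, which is the log2 effect of the receptor label in 5xFAD carriers minus its effect in non-carriers, was 0.54 (SE 0.163, adjusted p = 0.379).

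Mlc1 encodes an endfoot membrane protein whose loss in people causes a leukoencephalopathy with cysts. It stood at 536, 619 and 492 CPM for WT, 526, 509 and 494 for 5xFAD, 532, 484 and 507 for p75NTRko-labelled and 446, 432 and 432 for 5xFAD/p75NTRko-labelled libraries. The 3 5xFAD/p75NTRko-labelled values were the 3 lowest of the 12 libraries. The log2 fold change of this genotype was -0.33 against WT (SE 0.0908, adjusted p = 0.368), -0.22 against 5xFAD (SE 0.0909, adjusted p = 0.878) and -0.22 against p75NTRko-labelled libraries (SE 0.0909, adjusted p = 0.739), by edgeR. The bicarbonate transporter Slc4a4 ranged from 127 to 186 CPM.

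The 2 gap junction genes are those that couple astrocytes into networks. Gja1 (connexin 43) ranged from 70.4 CPM in WT replicate 2 to 169 CPM in 5xFAD/p75NTRko-labelled replicate 2, and Gjb6 (connexin 30) from 62 CPM in p75NTRko-labelled replicate 3 to 116 CPM in WT replicate 2. WT replicate 2 was thus the lowest library for one connexin and the highest for the other. Of the metabolic enzymes, Aldh1l1, a folate enzyme much used as an astrocyte marker, was low at 5.68 to 10.2 CPM. Aldoc, the aldolase of astrocytes, stood at 1638, 1845 and 1371 CPM for WT, 1588, 1444 and 1372 for 5xFAD, 1350.0, 1278 and 1275 for p75NTRko-labelled and 1439, 1436 and 1581 for 5xFAD/p75NTRko-labelled libraries. All 3 p75NTRko-labelled libraries lay below all WT libraries, with p75NTRko-labelled replicate 1 just under WT replicate 3. The log2 fold change was -0.31 (SE 0.106, adjusted p = 0.339 by edgeR).

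The regulators, receptors and secreted factors of the identity set included its steadiest and its most variable gene. Sox9, the transcription factor of astrocyte fate, had the smallest within-genotype SD of the set (0.0854 on the log2 CPM scale) and ranged from 250.4 to 305 CPM, and the neurotensin receptor Ntsr2 ranged from 67 to 89.8 CPM. S100b, a calcium-binding protein, stood at 321, 358 and 361 CPM for WT, 429.6, 349 and 358 for 5xFAD, 347, 287 and 287 for p75NTRko-labelled and 309, 299 and 321 for 5xFAD/p75NTRko-labelled libraries. All 3 5xFAD libraries lay above all 5xFAD/p75NTRko-labelled libraries. The log2 fold change of 5xFAD/p75NTRko-labelled against 5xFAD was -0.29 (SE 0.104, adjusted p = 0.797 by edgeR).

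Fgfr3, a fibroblast growth factor receptor of the astrocyte lineage, stood at 96.2, 100.1 and 85.8 CPM for WT, 77.4, 79.2 and 79.3 for 5xFAD, 87.5, 69.4 and 70.6 for p75NTRko-labelled and 79.1, 104 and 89.2 for 5xFAD/p75NTRko-labelled libraries. The 5xFAD libraries lay below the WT libraries, and the p75NTRko-labelled libraries overlapped the 5xFAD/p75NTRko-labelled ones. Its interaction was 0.52 (SE 0.168, adjusted p = 0.405 by edgeR). With Xist class as a term in the fit the interaction of Fgfr3 was -0.01. Only p75NTRko-labelled libraries held both Xist classes, so this term rests on replicate 1 of that genotype against replicates 2 and 3.

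Agt, the angiotensinogen that astrocytes secrete, is known to be expressed unevenly over brain regions. It stood at 12, 18.7 and 14.8 CPM for WT, 15.1, 11.3 and 6.94 for 5xFAD, 5.93, 8.74 and 9.66 for p75NTRko-labelled and 22.1, 10.7 and 8.53 for 5xFAD/p75NTRko-labelled libraries. The 3 p75NTRko-labelled libraries lay below the WT libraries, and 5xFAD/p75NTRko-labelled replicate 1 was the highest of the 12. The within-genotype SD of Agt, 0.504 on the log2 CPM scale, was the largest of the identity set. It gave a log2 fold change equal to -0.89 for p75NTRko-labelled against WT (SE 0.35, adjusted p = 0.374) and 0.76 for 5xFAD/p75NTRko-labelled against p75NTRko-labelled libraries (SE 0.354, adjusted p = 0.755), by edgeR.

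**Figure D2:**
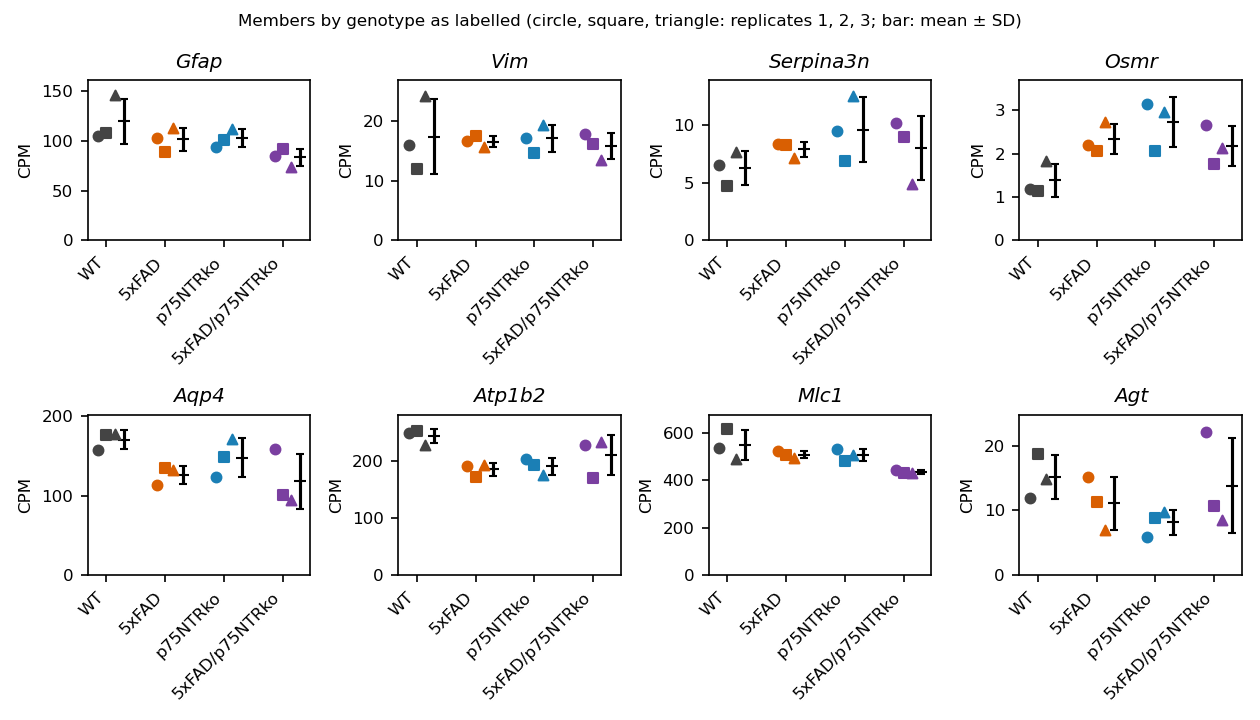
CPM of 4 reactive genes (upper row) and 4 identity genes (lower row) in each library, by genotype as labelled; circles, squares and triangles are replicates 1, 2 and 3 and bars give the mean and SD of 3 libraries. Gfap, Vim and Aqp4 were highest in WT replicate 3, Mlc1 was lowest in the 3 5xFAD/p75NTRko-labelled libraries, and Agt was highest in 5xFAD/p75NTRko-labelled replicate 1.

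Of the reactive genes, the intermediate filament genes come first. Gfap, at chr11:102887336-102897200 of GRCm38, stood at 105, 109 and 146 CPM for WT, 103, 89.6 and 113 for 5xFAD, 94.3, 102 and 113 for p75NTRko-labelled and 84.9, 91.8 and 73.9 for 5xFAD/p75NTRko-labelled libraries. The 5xFAD libraries overlapped the WT libraries, and all 3 5xFAD/p75NTRko-labelled libraries lay below all WT and all p75NTRko-labelled libraries. For 5xFAD against WT the log2 fold change was -0.24, with a 95% interval of -0.52 to 0.05. For 5xFAD/p75NTRko-labelled against WT it was -0.52 (SE 0.136, adjusted p = 0.325), and against p75NTRko-labelled libraries -0.30 (SE 0.137, adjusted p = 0.75), by edgeR. Without WT replicate 3, the WT library with the most Gfap, the value against WT was -0.36 (adjusted p = 0.198).

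Vim, at chr2:13574311-13582826, stood at 16, 12 and 24.2 CPM for WT, 16.6, 17.5 and 15.6 for 5xFAD, 17.2, 14.7 and 19.3 for p75NTRko-labelled and 17.8, 16.2 and 13.4 for 5xFAD/p75NTRko-labelled libraries. Both the lowest and the highest of the 12 values were WT libraries. Its log2 fold change lay between -0.14 and -0.02 in the 5 pairwise comparisons, with a 95% interval of -0.53 to 0.39 for 5xFAD against WT. Vimentin is also made by endothelial, mural and ependymal cells and by neural stem cells.

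The secreted acute-phase and metal-handling proteins were low. Serpina3n, a protease inhibitor that astrocytes release in many injuries, stood at 6.57, 4.71 and 7.63 CPM for WT, 8.32, 8.26 and 7.15 for 5xFAD, 9.45, 6.9 and 12.5 for p75NTRko-labelled and 10.2, 8.97 and 4.92 for 5xFAD/p75NTRko-labelled libraries. The genotypes overlapped, with the highest value in p75NTRko-labelled replicate 3. Its log2 fold change was 0.33 for 5xFAD against WT (95% interval -0.29 to 0.95) and 0.63 for p75NTRko-labelled against WT (SE 0.285, adjusted p = 0.426 by edgeR). Lcn2, an iron-carrier-binding lipocalin, stood at 3.14, 3.25 and 4.31 CPM for WT, 4.07, 3.19 and 4.63 for 5xFAD, 4.63, 6.44 and 3.72 for p75NTRko-labelled and 6.49, 5.07 and 4.26 for 5xFAD/p75NTRko-labelled libraries. The 5xFAD/p75NTRko-labelled libraries reached down into the WT range, and the log2 fold change against WT was 0.57 (SE 0.286, adjusted p = 0.52 by edgeR).

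Cp, the copper-carrying ferroxidase ceruloplasmin, which choroid plexus also makes, ranged from 9.75 to 24.4 CPM, and the highest value was WT replicate 3. Timp1, a metalloproteinase inhibitor, had 0 to 7 counts per library and the metalloreductase Steap4 0 to 6. Neither passed the filter on low counts, and a level at or under 3 counts was not measurable at this depth.

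Among the receptors, adhesion molecules and enzymes, Osmr gave the smallest p-values against WT. It encodes the receptor of oncostatin M, a cytokine that signals through STAT3, and stood at 1.2, 1.14 and 1.82 CPM for WT, 2.21, 2.07 and 2.73 for 5xFAD, 3.15, 2.07 and 2.97 for p75NTRko-labelled and 2.66, 1.75 and 2.13 for 5xFAD/p75NTRko-labelled libraries. All 5xFAD and all p75NTRko-labelled libraries lay above all WT libraries, and the 5xFAD/p75NTRko-labelled libraries overlapped WT by replicate 2. Counts of Osmr were 7 to 20 per library, so this separation rests on few reads. The fitted log2 fold change was 0.74 for 5xFAD against WT (SE 0.361, adjusted p = 0.373) and 0.99 for p75NTRko-labelled against WT (SE 0.351, adjusted p = 0.347), by edgeR. The interaction of Osmr was -1.07 (SE 0.491, adjusted p = 0.527).

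Ggta1, an enzyme that adds galactose to glycans, stood at 2.99, 2.43 and 4.48 CPM for WT, 4.58, 6.76 and 3.37 for 5xFAD, 5.56, 3.91 and 4.91 for p75NTRko-labelled and 4.83, 3.51 and 4.92 for 5xFAD/p75NTRko-labelled libraries. WT replicate 3 overlapped the other genotypes, and the log2 fold change of 5xFAD against WT was 0.58 (SE 0.32, adjusted p = 0.43 by edgeR). Aspg, an asparaginase, stood at 1.34, 1.14 and 0.995 CPM for WT, 0.849, 1.88 and 0.631 for 5xFAD, 0.927, 1.61 and 0.149 for p75NTRko-labelled and 2.33, 1.36 and 2.62 for 5xFAD/p75NTRko-labelled libraries. The 5xFAD/p75NTRko-labelled libraries overlapped the p75NTRko-labelled ones at replicate 2 of each. For that pair of genotypes the log2 fold change of Aspg was 1.36 (SE 0.589, adjusted p = 0.747 by edgeR), and it was 0.76 without p75NTRko-labelled replicate 3 and 2.03 without replicate 2 of that genotype. Counts of Aspg were 1 to 16 per library, the lowest in p75NTRko-labelled replicate 3, so these values rest on few reads. The hyaluronan receptor Cd44 ranged from 5.38 to 12.8 CPM, and the sphingosine-1-phosphate receptor S1pr3 from 0 to 2.39 CPM.

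Complement and matrix genes followed. C4b, complement component 4, stood at 6.72, 7.14 and 7.96 CPM for WT, 11, 11.8 and 6.52 for 5xFAD, 12.6, 11.3 and 8.77 for p75NTRko-labelled and 13, 7.99 and 7.05 for 5xFAD/p75NTRko-labelled libraries. The p75NTRko-labelled libraries all lay above WT, and the other genotypes overlapped WT by at least 1 library. Its log2 fold change was 0.44 for 5xFAD against WT (95% interval -0.14 to 1.02) and 0.57 for p75NTRko-labelled against WT (SE 0.268, adjusted p = 0.435 by edgeR). C4b has a near-identical copy, C4a, and reads that fit both were not counted, so its level is uncertain. The C1 inhibitor Serping1 ranged from 1.05 to 11.1 CPM, the elastic-fibre protein Fbln5 from 0.897 to 6.64 CPM and the proteoglycan core Srgn from 3.08 to 8.97 CPM. WT replicate 3 was the highest library for Serping1 and Fbln5.

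The last group comprised interferon-responsive and antigen-presentation genes. Cxcl10, a chemokine, stood at 2.99, 1.79 and 2.49 CPM for WT, 2.72, 3.19 and 5.26 for 5xFAD, 1.3, 3.45 and 2.23 for p75NTRko-labelled and 1.33, 3.12 and 2.13 for 5xFAD/p75NTRko-labelled libraries. Gbp2, an interferon-induced GTPase, stood at 4.03, 2.92 and 4.48 CPM for WT, 2.55, 2.63 and 2.95 for 5xFAD, 3.89, 0.92 and 2.23 for p75NTRko-labelled and 4.83, 3.7 and 2.46 for 5xFAD/p75NTRko-labelled libraries. The 2 genes peaked in different libraries, Cxcl10 in 5xFAD replicate 3 and Gbp2 in 5xFAD/p75NTRko-labelled replicate 1. Both rest on few reads, with 7 to 25 counts per library for Cxcl10 and 4 to 29 for Gbp2. The log2 fold change of Cxcl10 for 5xFAD/p75NTRko-labelled against 5xFAD was -0.76 (SE 0.42, adjusted p = 0.98), and the interaction of Gbp2 was 1.10 (SE 0.574, adjusted p = 0.557), by edgeR. Both signs turned with Xist class as a term, to 0.32 and -0.81. That term rests on p75NTRko-labelled replicate 1 against the other libraries of its genotype. H2-D1 ranged from 29.2 to 43.8 CPM and H2-T23 had 0 to 4 counts. Both are class I genes with close paralogs, and Gbp2 and Serpina3n belong to gene clusters of similar sequence, so reads that fit several copies were not counted.

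The promoters of Cxcl10 and Gbp2 are printed because they are the 2 interferon-responsive reactive genes tested that hold an interferon-stimulated response element, and that of Agt because it holds a STAT element and is the identity gene that varied most. Each line gives the 250 bases before the start of the gene, 5′ to 3′ on the gene's strand, from RefSeq (GRCm38.p6): chr5:92348890-92349139, minus strand, for Cxcl10, chr3:142620413-142620662, plus strand, for Gbp2, and chr8:124569707-124569956, minus strand, for Agt. Capitals mark the match.
Cxcl10: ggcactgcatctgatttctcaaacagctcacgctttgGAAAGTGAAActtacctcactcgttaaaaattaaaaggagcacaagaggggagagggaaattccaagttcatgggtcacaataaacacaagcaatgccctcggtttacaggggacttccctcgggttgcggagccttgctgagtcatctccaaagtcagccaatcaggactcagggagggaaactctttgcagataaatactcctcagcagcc
Gbp2: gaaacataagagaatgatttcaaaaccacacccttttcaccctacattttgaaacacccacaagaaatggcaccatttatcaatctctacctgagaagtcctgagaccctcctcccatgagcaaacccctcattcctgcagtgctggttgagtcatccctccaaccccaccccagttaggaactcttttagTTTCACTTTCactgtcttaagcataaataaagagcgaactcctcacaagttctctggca
Agt: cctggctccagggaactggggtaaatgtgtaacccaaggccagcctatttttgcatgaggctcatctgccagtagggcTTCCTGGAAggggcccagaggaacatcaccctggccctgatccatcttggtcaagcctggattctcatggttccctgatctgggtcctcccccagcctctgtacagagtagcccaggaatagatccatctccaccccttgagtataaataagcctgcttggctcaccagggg
Searched on both strands of these windows, the interferon-stimulated response element (GAAA, any 2 bases, GAAA) was in 4 of 21 promoters of reactive genes (19.0%; Cxcl10, Gbp2, H2-T23 and Srgn), in 1 of 16 of identity genes (6.25%; Glul) and in 2.98% of 32851 promoters in all. The STAT element (TTCNNNGAA) was in 4 of 16 promoters of identity genes (25.0%; Agt, Aldoc, Ntsr2 and Slc1a3), in 1 of 21 of reactive genes (4.76%; Steap4) and in 7.02% of all. Promoter entries were found for 18 reactive and 13 identity genes, some with several starts. The palindrome of nuclear factor I, a family that drives astrocyte genes, was in none of these windows and in 0.0365% of all. A match is a run of letters, not a bound site.

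The 33 tested genes were then compared between genotypes as a whole. For 5xFAD against WT, 0 of 33 passed the adjusted threshold, where 0.0536% of all tested genes did. At an unadjusted p under 0.05 there were 4 of 33, or 12.1%, where 13.9% of all genes had such a p. Atp1b2, Aqp4 and Fgfr3 were lower, beside 6.14% of all genes, and Ntsr2 was higher, beside 7.73%. The 5xFAD and WT libraries did not overlap in 2 genes that were higher in 5xFAD, beside 10.5% of all genes, and in 3 that were lower, beside 9.02%. The median log2 fold change was -0.04 for the identity genes and -0.05 for the reactive genes, beside -0.00 for all genes, and 8 of 17 reactive genes were above 0, beside 49.6% of all genes. Neither sign was stable: the identity median was above 0 under 3 of 22 alternative settings (0.12 with Xist class as a term) and the reactive median under 8 of 22. Here and below, a fit with the Xist term rests on p75NTRko-labelled replicate 1, as only that genotype held both Xist classes.

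For p75NTRko-labelled against WT, 0 of 33 passed, as 0% of all genes did. An unadjusted p under 0.05 was found for 7 of 33, or 21.2%, beside 11.5% of all genes. The identity genes Atp1b2, Aldoc, Fgfr3 and Agt were lower, beside 6.16% of all genes, and the reactive genes Osmr, Serpina3n and C4b were higher, beside 5.33%. Libraries did not overlap in 3 genes that were higher, beside 7.93% of all genes, and in 4 that were lower, beside 8.5%. Although 3 reactive genes were higher at that level, 11 of 17 had a log2 fold change below 0, beside 50.1% of all genes, and the reactive median was -0.09. It was above 0 under 3 of 22 alternatives. The identity median was -0.10, and below 0 under all 22.

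For 5xFAD/p75NTRko-labelled against 5xFAD, 0 of 33 passed, beside 0.0383% of all genes, and 2 of 33 had an unadjusted p under 0.05, beside 5.08%. S100b and Mlc1 were both lower, beside 3.1% of all genes, and 0 were higher, beside 1.98%. Those 2 were also the 2 genes whose libraries did not overlap downwards, beside 6.02% of all genes, and 0 did upwards, beside 5.18%. The median was -0.09 for the identity genes, below 0 under all 22 alternatives, and -0.00 for the reactive genes, above 0 under 6 of 22.

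For 5xFAD/p75NTRko-labelled against p75NTRko-labelled libraries, 0 of 33 passed, as 0% of all genes did, and 5 of 33 had an unadjusted p under 0.05, beside 6.59%. Fgfr3, Agt and Aspg were higher there, beside 3.6% of all genes, and Mlc1 and Gfap were lower, beside 2.99%. Libraries did not overlap in 1 gene upwards, beside 6.54% of all genes, and in 3 downwards, beside 5.74%. The medians were 0.04 and 0.07 for identity and reactive genes. The first turned below 0 under 3 of 22 alternatives (-0.08 with Xist class as a term) and the second under 8 of 22. One of these 8 was -0.13 over only the 5 reactive genes with a mean of at least 50 counts. With single libraries left out the reactive median ran from -0.06 to 0.17.

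For 5xFAD/p75NTRko-labelled against WT, 0 of 33 passed, as 0% of all genes did, and 3 of 33 had an unadjusted p under 0.05, beside 9.95%. Gfap, Mlc1 and Aqp4 were lower, beside 4.44% of all genes, and 0 were higher, beside 5.51%. Libraries did not overlap in 1 gene upwards, beside 5.95% of all genes, and in 4 downwards, beside 5.53%. The medians were -0.04 for identity genes, below 0 under all 22 alternatives, and 0.07 for reactive genes. The reactive median was -0.11 without WT replicate 2, up to 0.17 with another library left out, and -0.14 over only the 5 reactive genes with a mean of at least 50 counts.

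For the interaction, 0 of 33 passed, beside 0.0383% of all genes, and 6 of 33 had an unadjusted p under 0.05, beside 9.32%. Atp1b2, Fgfr3, Agt and Aldoc were above 0, beside 5.19% of all genes, and Slc1a3 and Osmr below, beside 4.13%. The medians were 0.03 for identity and -0.05 for reactive genes. With Xist class as a term they were -0.26 and 0.24, and their signs turned under 9 and 8 of 21 alternatives. Of the 12 medians given for the 6 comparisons, 9 changed sign under at least 1 alternative. Counts of members past the adjusted threshold were 0 of 33 with DESeq2 in each of the 6 comparisons as well.

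**Figure D3:**
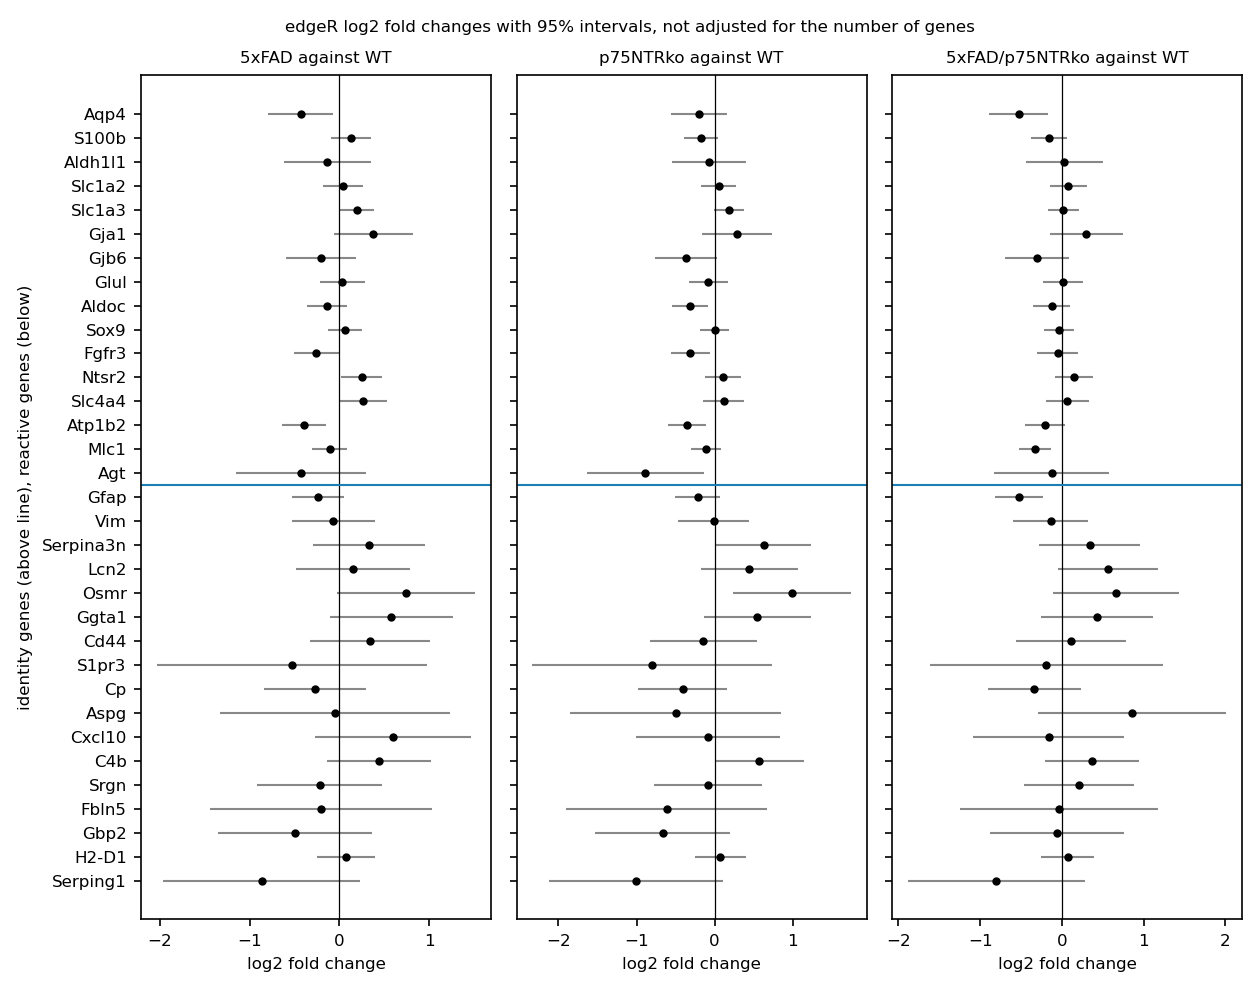
Log2 fold changes of the 33 tested genes against WT (points) with 95% intervals (lines, not adjusted for the number of genes) for 5xFAD, p75NTRko-labelled and 5xFAD/p75NTRko-labelled libraries. The intervals of the identity genes, above the blue line, are mostly shorter than those of the reactive genes below it, except that Agt has a long one and Gfap a short one; Mlc1, Aqp4 and Gfap lie below 0 in the right panel.

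The precision of these comparisons differed between the groups. For 5xFAD against WT, the 95% interval of an identity gene extended a median of 0.25 log2 units to either side, and 15 of 16 intervals lay within a 2-fold change in both directions. A reactive gene's interval extended a median of 0.68 log2 units, and 7 of 17 lay within a 2-fold change. The within-genotype SD on the log2 CPM scale had a median of 0.150 over the identity genes and of 0.381 over the reactive genes, with Gfap the steadiest reactive gene at 0.185.

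Summarised per library, the reactive score (the mean log2 CPM of the 17 reactive genes) was 2.55, 2.39 and 3.0 for WT, 2.76, 2.76 and 2.54 for 5xFAD, 2.50, 2.58 and 2.65 for p75NTRko-labelled and 2.92, 2.65 and 2.63 for 5xFAD/p75NTRko-labelled libraries. WT held both the lowest and the highest library, and the other 3 genotypes lay inside the WT range. The reactive minus the identity score had a mean of -5.08 ± 0.33 for WT, -4.99 ± 0.05 for 5xFAD, -5.02 ± 0.13 for p75NTRko-labelled and -4.91 ± 0.09 for 5xFAD/p75NTRko-labelled libraries (SD, n = 3). The means differed by less than the SD of the WT libraries.

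**Figure D4:**
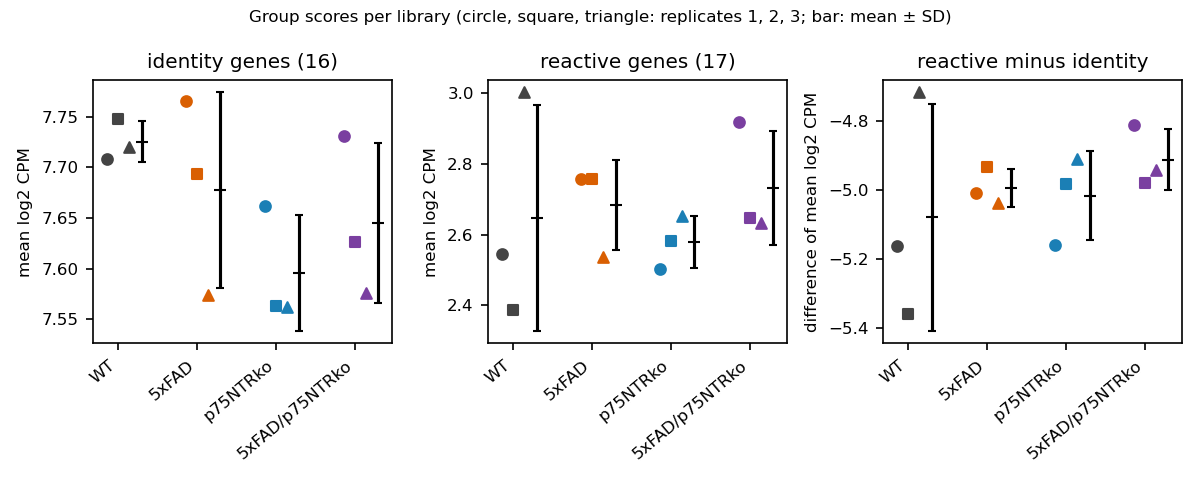
Identity score, reactive score and their difference (mean log2 CPM) in each library by genotype as labelled; circles, squares and triangles are replicates 1, 2 and 3 and bars give mean and SD of 3 libraries. The identity axis spans 7.56 to 7.77, while the reactive score runs from 2.39 in WT replicate 2 to 3.0 in WT replicate 3.

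WT replicate 3 was the highest library of its genotype in 13 of 17 reactive genes and the highest of all 12 libraries in 5 of them (Gfap, Vim, Cp, Fbln5 and Serping1). WT replicate 2 was the lowest of its genotype in 11 of 17. In the identity genes WT replicate 3 was the highest of its genotype in 6 of 16. Without WT replicate 3 the median log2 fold change of the reactive genes was 0.23 for 5xFAD against WT and 0.17 for p75NTRko-labelled against WT, above 0 where it had been below, and the adjusted threshold was still passed by 0 of 33 genes. Leaving out 5xFAD/p75NTRko-labelled replicate 1 as well, an alternative chosen after seeing the data, gave 0.23 and 0.17.

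Some marker scores of other cell types, but not all, were highest in WT replicate 3. Its mural and fibroblast score was 3.96, where the other 11 libraries had 2.73 to 3.70, and its endothelial score was 4.86, the highest of 12. Its microglia score, 4.68, lay below that of WT replicate 1 (4.83). Its oligodendrocyte score, 7.25, lay below that of 5xFAD replicate 1 (7.50). Its choroid plexus score was 5.17, where WT replicates 1 and 2 had 3.65 and 3.97. Its ependymal score was 2.72, where they had 2.04 and 2.25. Both lay below those of p75NTRko-labelled replicate 1 (5.35 and 3.06). Of the mural and fibroblast list 11 of 12 genes were tested. The summed level of all 12 was 191 to 325 CPM for WT, 124 to 278 for 5xFAD, 162 to 217 for p75NTRko-labelled and 169 to 245 for 5xFAD/p75NTRko-labelled libraries. Of the endothelial list 9 of 9 were tested, with sums of 376 to 430.4, 341 to 357, 332 to 429 and 311 to 360.2 CPM in the same order. None of the tested genes of either list was at 0 in any library. The part of any of these cell types in the reactive score was not tested.

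5xFAD/p75NTRko-labelled replicate 1 had the second highest reactive score and was the highest of its genotype in 9 of 17 reactive genes. It also had the highest thalamic score, 4.69, and a choroid plexus score of 5.28, where the other libraries of its genotype had 1.07 and 1.55. All 18 choroid plexus markers were tested. Their sum was 2461 to 6105 CPM for WT, 333 to 1988 for 5xFAD, 4539 to 7438 for p75NTRko-labelled and 185 to 7369 for 5xFAD/p75NTRko-labelled libraries, and Slc4a5, Tmem72 and Kcne2 were at 0 in at least 1 library of the last group. Of the thalamus and habenula markers 11 of 14 were tested. The sums of all 14 were 359.5 to 606 CPM, 249.9 to 302 CPM, 245 to 250.4 CPM and 224 to 693 CPM in the same order. Gbx2 was at 0 in all 5xFAD libraries.

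Because brain regions differ in their astrocytes and choroid plexus makes some of these proteins, Agt, Gfap, Vim and Cp were set against both scores over the 12 libraries, 8 relations in all. Agt followed the thalamic score, with Pearson's r = 0.775 (permutation p = 0.0032, Benjamini-Hochberg adjusted over 8 relations 0.0254) and Spearman's rho = 0.713 (permutation p = 0.0116, adjusted 0.0925). Without the 2 libraries farthest from the median score, 5xFAD/p75NTRko-labelled replicate 1 and WT replicate 3, r was 0.631 (permutation p = 0.0512, adjusted 0.41), so the call rests on those libraries. With genotype means removed r was 0.640 (exact permutation p = 0.184 over 1296 arrangements, adjusted 0.295).

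Cp gave r = 0.627 with the thalamic score (permutation p = 0.0282, adjusted 0.113; rho = 0.608, permutation p = 0.0398) and r = 0.527 with the choroid plexus score (permutation p = 0.077, adjusted 0.205; rho = 0.413, permutation p = 0.185). Without the 2 libraries farthest from the median of each score these were 0.226 and 0.410. For the choroid plexus score those were 5xFAD/p75NTRko-labelled replicates 2 and 3. Within genotypes the 2 correlations of Cp were 0.588 and 0.712. Gfap gave r = 0.256 and 0.372 and Vim 0.222 and 0.455 with the thalamic and choroid plexus scores, and none of the 4 passed the adjusted threshold (adjusted permutation p of 0.281 to 0.488). Agt and the choroid plexus score gave r = 0.274 (permutation p = 0.385, adjusted 0.483).

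**Figure D5:**
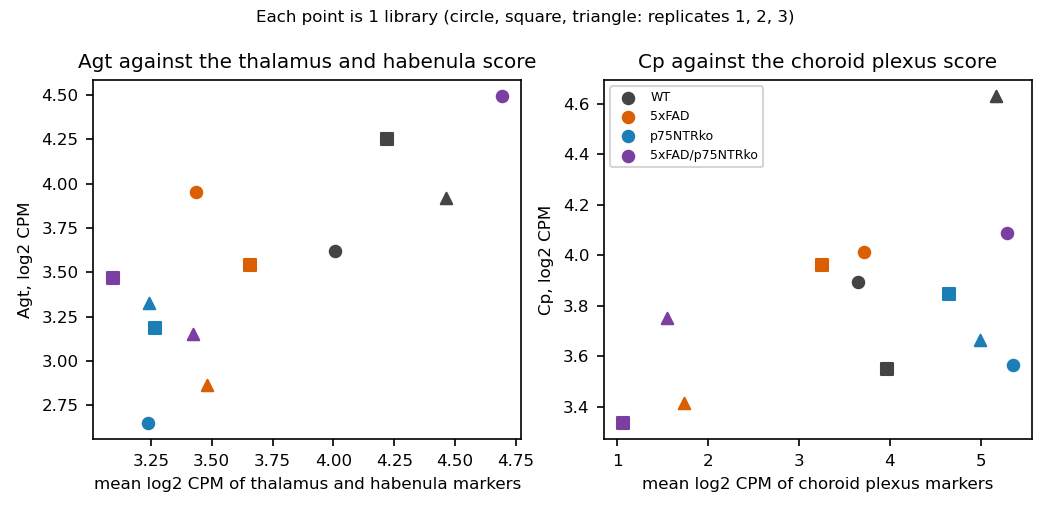
Log2 CPM of Agt against the thalamus and habenula score (left) and of Cp against the choroid plexus score (right), 1 point per library, coloured by genotype as labelled, with circles, squares and triangles for replicates 1, 2 and 3. Agt is highest in 5xFAD/p75NTRko-labelled replicate 1, the library with the highest thalamic score, 4.69, and Cp is highest in WT replicate 3.

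Related genes, taken as lists by name, were read in the same way. Of 30 further astrocyte genes 0 passed in any comparison. For 5xFAD against WT 3 were higher, beside 7.73% of all genes, and 4 lower, beside 6.14%, at an unadjusted p under 0.05. Above 0 were 16 of 30, beside 49.6% of all genes, and the median log2 fold change was 0.03. For p75NTRko-labelled against WT 0 were higher, beside 5.33% of all genes, and 5 lower, beside 6.16%, at that level. Below 0 were 18 of 30, beside 50.1% of all genes, and the median was -0.08. The smallest p-values were those of Slc6a9, a glycine transporter, at 33.8 ± 2.34 CPM for WT, 20.1 ± 4.0 for 5xFAD, 21.7 ± 1.15 for p75NTRko-labelled and 27.8 ± 4.22 for 5xFAD/p75NTRko-labelled libraries (SD, n = 3). Between genotypes the log2 fold change was -0.75 for 5xFAD against WT (SE 0.155, adjusted p = 0.109) and -0.64 for p75NTRko-labelled against WT (SE 0.154, adjusted p = 0.221), with an interaction of 1.10 (SE 0.221, adjusted p = 0.193), by edgeR. Kcnj10, the potassium channel Kir4.1 of astrocyte endfeet, stood at 70.8 ± 3.69, 47.4 ± 5.11, 49.2 ± 1.11 and 56.6 ± 10.7 CPM in the same order. For Kcnj10 the log2 fold change was -0.58 for 5xFAD against WT (adjusted p = 0.116) and -0.53 for p75NTRko-labelled against WT (adjusted p = 0.221), by the same edgeR test.

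Of the further reactive genes 13 of 18 were tested and 0 passed. At an unadjusted p under 0.05, 0 were higher and 2 lower for 5xFAD against WT, beside 7.73% and 6.14% of all genes. The median there was -0.02. For p75NTRko-labelled against WT 1 was higher and 2 lower, beside 5.33% and 6.16%. In that comparison 5 of 13 were below 0, beside 50.1% of all genes, and the median was 0.10. Sphk1, which makes sphingosine-1-phosphate, the ligand of S1pr3, stood at 5.99 ± 0.578 CPM for WT, 1.93 ± 1.15 for 5xFAD, 1.27 ± 0.497 for p75NTRko-labelled and 2.02 ± 1.13 for 5xFAD/p75NTRko-labelled libraries (SD, n = 3). Every WT library was above every library of the other genotypes, and the log2 fold change of p75NTRko-labelled against WT was -2.26 (SE 0.462, adjusted p = 0.145 by edgeR). The heat-shock protein gene Hspb1 was at 6.74 ± 1.8 CPM in WT and at 3.36 ± 0.562 CPM in 5xFAD/p75NTRko-labelled libraries. Fkbp5, a glucocorticoid-induced co-chaperone, was at 42.8 ± 5.89 CPM in WT and higher at 65.3 ± 25.2 CPM in p75NTRko-labelled libraries, with no overlap (adjusted p = 0.355 by edgeR).

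In the pathway from IL-6 family cytokines to STAT3, which Osmr feeds, 8 of 13 genes were tested and 0 passed. The median was 0.04 both for 5xFAD and for p75NTRko-labelled against WT. At an unadjusted p under 0.05, 0 were higher and 1 lower for 5xFAD, beside 7.73% and 6.14% of all genes. For p75NTRko-labelled libraries 1 was higher and 1 lower, beside 5.33% and 6.16%. Stat3 stood at 99.1 ± 2.65 CPM in WT and at 119.5 ± 4.03 CPM in p75NTRko-labelled libraries (SD, n = 3), with no overlap and a log2 fold change equal to 0.27 (SE 0.0847, adjusted p = 0.328 by edgeR). The receptor of ciliary neurotrophic factor, Cntfr, stood at 37.4 ± 5.3 CPM in WT and at 27.3 ± 1.94, 25.4 ± 4.19 and 24.3 ± 3.86 CPM in 5xFAD, p75NTRko-labelled and 5xFAD/p75NTRko-labelled libraries. WT did not overlap any of them, and the adjusted p-values by edgeR were 0.261, 0.263 and 0.288.

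Of the interferon and antigen-presentation genes 25 of 27 were tested, and of the complement genes 6 of 10, and 0 of either passed. Of the interferon and antigen-presentation genes 2 were higher and 1 lower at an unadjusted p under 0.05, both for 5xFAD and for p75NTRko-labelled against WT. The shares of all genes were 7.73% and 6.14% for 5xFAD, and 5.33% and 6.16% for p75NTRko-labelled libraries. The median was -0.01 for 5xFAD against WT. For p75NTRko-labelled against WT it was 0.08, with 7 of 25 below 0, beside 50.1% of all genes. The peptide transporter Tap2 stood at 14.9 ± 7.28 CPM in WT and 26.2 ± 5.81 CPM in 5xFAD (SD, n = 3), with overlap and an adjusted p of 0.243 by edgeR. Ifit3, an interferon-induced gene, was at 16.4 ± 2.34 CPM in WT and lower at 10.5 ± 3.16 CPM in p75NTRko-labelled libraries (adjusted p = 0.364 by the same edgeR test), while Gbp7, another guanylate-binding protein, was at 3.46 ± 0.881 CPM in WT and higher at 6.07 ± 1.03 CPM in 5xFAD (adjusted p = 0.278 by the same edgeR test). Gbp7 was at 5.42 ± 1.75 CPM in p75NTRko-labelled libraries, overlapping WT (adjusted p = 0.407 by edgeR). Of the 6 complement genes 2 were above 0 for 5xFAD against WT, beside 49.6% of all genes, with a median of -0.18. Cd59a, an inhibitor of complement lysis, was at 37.1 ± 16.3 CPM in WT and 14 ± 3.97 CPM in 5xFAD, with no overlap and a log2 fold change equal to -1.39 (SE 0.367, adjusted p = 0.189 by the same edgeR test).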

How the data were processed

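Total RNA of 12 hippocampal samples was made into 3′ mRNA libraries, all with the same batch label, per the labels' protocols. The authors deposited raw counts per gene symbol, 1 column per library; the submitters' processing notes name FastQC, HISAT2, SAMtools, HTSeq, edgeR and the build mm10, and use of strand is not given in the sources used here. The 5 summary lines entered neither library sizes nor tests; 32.2% to 38.5% of reads were assigned to genes, and 9.57% to 12.1% that aligned to several places were not counted. Limits taken from counts allow for counting error alone, because the reads were amplified and carry no molecular identifiers.

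With edgeR 4.0.16 (R 4.3.3), low genes were removed by filterByExpr per genotype, libraries scaled by TMM (0.975 to 1.03), and counts fitted by quasi-likelihood with a mean per genotype over all 12 libraries; p-values were adjusted by Benjamini-Hochberg over 13065 genes with a threshold of 0.05. CPM used TMM-scaled library sizes and log2 CPM a prior count of 2. Permutations of the relations numbered 1e+05. The procedure was run on counts simulated with the spread that edgeR itself estimated, without differences in marker RNA or Xist class. Such a run does not show how it performs on these libraries.

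The members, gene lists and comparisons were chosen with earlier results of these data known. Genes with values in every library were Gfap, Vim, Aqp4, Slc1a2, Agt, Serpina3n and C4b and the 2 smallest p-values of each group in each comparison; genes of related lists are named from the 2 smallest p-values of their list in a comparison. Exceptions, chosen after their values were seen, are the summed-marker genes Slc4a5, Tmem72, Kcne2 and Gbx2. Positions and promoters came from RefSeq GRCm38.p6, the release of the build that mm10 names, and all 36 symbols had a position. Replicates of a genotype differed by more than sampling noise (lowest chi-square per degree of freedom 3.03). Alternatives were RLE size factors, DESeq2 1.42.0, other filters and prior counts, only the compared genotypes, a replicate block, Xist class or marker scores as terms, and each library left out.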

Additional observations from a re-analysis of the deposited data

How the results depend on the processing

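No member passed the adjusted threshold in any comparison under any of the 22 alternatives, DESeq2 included, while the count over all genes ranged from 0 to 98: 7 and 98 (edgeR and DESeq2) for 5xFAD against WT, 57 without WT replicate 3, 0 and 55 for p75NTRko-labelled against WT, 5 and 20 for 5xFAD/p75NTRko-labelled against 5xFAD, 0 and 19 against p75NTRko-labelled, 0 and 30 against WT, and 5 and 25 for the interaction. The following are median log2 fold changes, identity genes first. With Xist class as a term they were 0.121 (5xFAD against WT), -0.023 (p75NTRko-labelled against WT), -0.156 (5xFAD/p75NTRko-labelled against 5xFAD), -0.085 (against p75NTRko-labelled) and -0.260 (interaction). With a mean of at least 50 counts the first was 0.036, and with the choroid plexus score as a covariate the fourth was 0.110. For the reactive genes, the interaction was 0.244 with Xist class and -0.269 with the thalamic score. With the thalamic score as a covariate the reactive median was 0.120 for 5xFAD against WT and 0.085 for p75NTRko-labelled against WT, above 0 in both. Over the 5 reactive genes with a mean of at least 50 counts the medians were -0.134 and -0.142 for 5xFAD/p75NTRko-labelled against p75NTRko-labelled and against WT. With single libraries left out, the reactive median ran from -0.113 to 0.234 for 5xFAD against WT and from -0.267 to 0.166 for p75NTRko-labelled against WT, the highest in both being without WT replicate 3, and the identity median for 5xFAD/p75NTRko-labelled against 5xFAD from -0.118 to -0.010. Without the 2 libraries with the highest thalamic score, chosen after seeing the data, the 2 reactive medians were 0.234 and 0.165. With a prior count of 0.5 the reactive minus identity score of p75NTRko-labelled replicate 1 was -5.357. Among single genes, Xist class as a term turned the sign of the interaction of Fgfr3 (-0.0085) and of Gbp2 (-0.809) and of Cxcl10 for 5xFAD/p75NTRko-labelled against 5xFAD (0.324). Every value with Xist class as a term rests on p75NTRko-labelled replicate 1 against the other libraries of its genotype. The 2 libraries farthest from the median score were also left out, an alternative chosen after seeing the data. Without 5xFAD/p75NTRko-labelled replicates 2 and 3, the correlation of Gfap with the choroid plexus score was -0.016. Without 5xFAD/p75NTRko-labelled replicate 1 and WT replicate 3, that of Vim with the thalamic score was -0.529 and that of Agt with the thalamic score 0.631. With genotype means removed the last was 0.640. The cause of these shifts was not tested.

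Same-numbered libraries deviated from their genotype means with correlations of -0.424 to 0.145 over 18 pairs, 2 of them over 0.1, and 3 of 12 libraries were closest to their own number, so the numbers were not taken as pairs. A replicate block gave 0 members past the threshold in each comparison and 1 of all genes for 5xFAD against WT. A fit of only the compared genotypes was not run for the interaction, which uses all 4. With 3 libraries per genotype, low reactive genes were measured from few counts.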
